A study of Mus musculus with 12 samples.

Results

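Neocortex lacking both Tbr1 and Tbr2 was compared with control neocortex on E14.5, in 6 of the 12 arrays of the series. The 3 *Tbr1/2* dKO embryos carried a constitutive *Tbr1* knockout together with a conditional *Tbr2* deletion by the *Nes11*-Cre transgene (*Tbr1*-/-, *Tbr2* 2F/2F, *Nes11*Cre). The 3 control embryos are labelled wild type, and according to the methods they had normal *Tbr1* alleles and a non-recombined *Tbr2* gene. The single mutants of the same experiment, 4 *Tbr1* KO and 2 *Tbr2* cKO embryos, were used for the shared estimate of spread and for direct comparisons. Each array (Affymetrix Mouse Exon 1.0 ST) measured the dissected neocortex of 1 embryo. The Cre transgene is driven by nestin sequences, which are active in neural progenitors, so that cells of other lineages in the tissue need not have lost *Tbr2*. The *Tbr1* knockout affects every cell of the embryo. In bulk tissue, fewer cells of a type and less RNA per cell cannot be told apart.

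Tbr2 and Tbr1 are T-box transcription factors that act one after the other in the lineage of cortical glutamatergic neurons. Radial glial progenitors, which express the homeodomain factor Pax6, line the ventricle and give rise to intermediate progenitors, which express Tbr2 (gene symbol *Eomes*). The neurons that these cells produce switch on Tbr1, which is strongest in the early-born neurons of the deep layers, the subplate and the Cajal-Retzius cells of the marginal zone. Projection neurons then acquire laminar and areal properties through guidance receptors, cadherins and layer-specific transcription factors.

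All comparisons use log2 values from robust multi-array averaging (RMA), and log2FC is the difference of mean log2 values, *Tbr1/2* dKO minus control. Of the 14860 genes with a single symbol, 462 differed at a Benjamini-Hochberg adjusted p under 0.05 from limma (3.11% of genes, here termed called). Of these, 179 were higher (1.2%) and 283 were lower (1.9%) in the double mutant. At an unadjusted p under 0.05 there were 1826 genes (12.3%). The 3 *Tbr1/2* dKO embryos lay on one side of the 3 controls in all 462 called genes, and in 17.1% of all genes. The called increases had a median log2FC of 0.55 and the called decreases one of -0.67, against a median of 0.01 over all genes. A change of at least 1 on the log2 scale was reached by 37 increases and 69 decreases, and a change of at least 2 by 6 increases and 12 decreases. The decreases began from higher expression, as the median control level was 10.11 for genes that fell, 9.05 for genes that rose and 8.74 for all genes. Calls were rare among the 3715 genes with the lowest mean level (0.511%) and made up 3.45% to 4.33% of the genes at higher levels. Without control replicate 1 the number of called genes was 258, and without control replicate 2 it was 283. With only the 6 arrays of both genotypes in the model it was 228. The genes nearest to the threshold were *Tmem41a* on the inner side (log2FC = 0.37, adjusted p = 0.0499) and *Herc3* on the outer side (log2FC = -0.62, adjusted p = 0.0503).

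**Figure D1:**
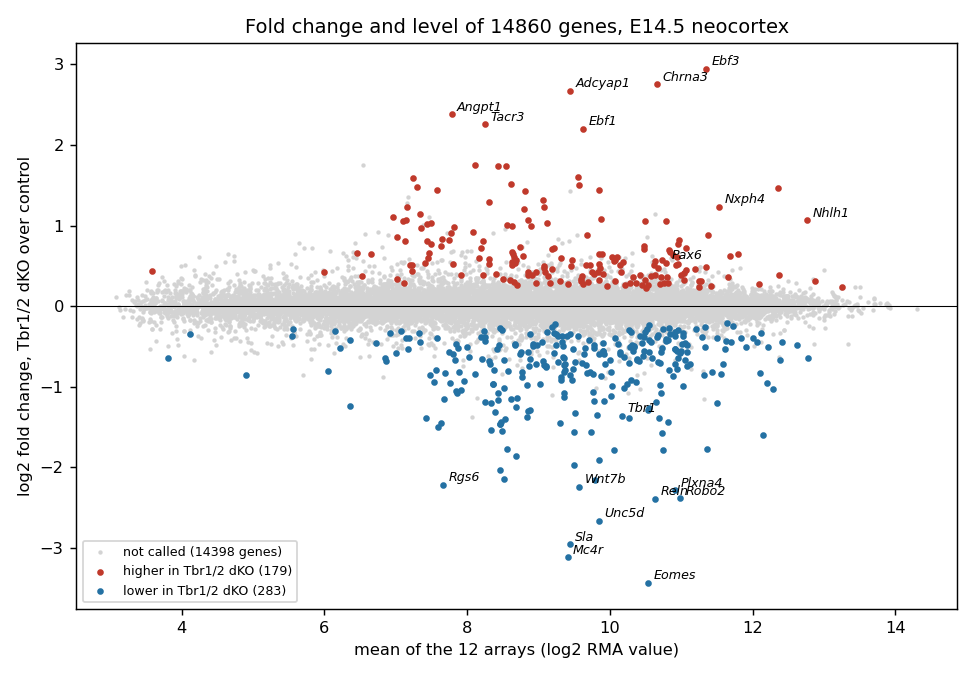
The horizontal axis gives the mean log2 RMA value of the 12 arrays and the vertical axis the log2FC of *Tbr1/2* dKO over control neocortex, with 1 point for each of 14860 genes. Called genes are in color, with 179 higher and 283 lower in *Tbr1/2* dKO neocortex, and the largest changes lie between -3.43 (*Eomes*) and 2.94 (*Ebf3*).

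The arrays of both genotypes were alike in their medians, which ranged from 8.15 to 8.25 over the 12 arrays. Correlations over genes, which are no replicates, were 0.992 to 0.995 within *Tbr1/2* dKO, 0.994 to 0.996 within controls and 0.988 to 0.992 between the genotypes. *Tbr1/2* dKO replicate 2 stood somewhat apart. It held the lowest of the 3 *Tbr1/2* dKO values in 187 of the 283 decreases (66.1%), but the highest in only 58 of the 179 increases (32.4%). Its array weight was the lowest of the series (0.42, against a maximum of 1.7), and control replicate 3 was nearly as low (0.48). Marker lists of other cell types also varied between embryos. The mean level of 20 genes of meninges and fibroblasts was 8.59, 7.91 and 7.98 in *Tbr1/2* dKO replicates 1 to 3, against 7.67, 7.81 and 7.98 in control replicates 1 to 3. *Tbr1/2* dKO replicate 1 thus had the highest level, while the other embryos of both genotypes overlapped. Adding this mean to the model as a covariate reduced the number of called genes to 301, of which 280 were among the 462. The samples hold both sexes, since *Eif2s3y*, a Y-linked gene, was at 10.89, 10.74 and 4.58 in *Tbr1/2* dKO embryos and at 10.93, 5.07 and 10.49 in controls.

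The targeted genes were examined first. *Eomes* had log2 values of 8.61, 8.65 and 8.37 in *Tbr1/2* dKO embryos, against 12.10, 11.70 and 12.13 in controls. Its log2FC of -3.43 (standard error 0.24, adjusted p = 1.66e-05 from limma), a 10.8-fold decrease, was the largest of all genes. *Tbr1* had values of 9.69, 9.52 and 9.55 in *Tbr1/2* dKO embryos, against 11.01, 10.96 and 10.88 in controls (log2FC = -1.36, standard error 0.09, adjusted p = 9.74e-06 from limma). Both genes were thus lower in every labelled mutant, with no overlap. Whether the probes lie in the deleted exons is not known here. *Pax6* moved the other way and had values of 11.19, 10.93 and 11.08 in *Tbr1/2* dKO embryos, against 10.52, 10.48 and 10.60 in controls (log2FC = 0.53, standard error 0.08, adjusted p = 0.00342 from limma).

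Genes next to the targeted loci were also examined. Among the 5 tested genes on either side of *Tbr1* on chromosome 2, both direct neighbours changed. *Psmd14*, a proteasome subunit, had values of 12.04, 12.16 and 12.03 in *Tbr1/2* dKO embryos, against 12.57, 12.54 and 12.64 in controls (log2FC = -0.51, adjusted p = 0.00128 from limma). *Slc4a10*, a bicarbonate transporter of neurons, had values of 9.36, 9.21 and 9.27 in *Tbr1/2* dKO embryos, against 8.39, 8.39 and 7.95 in controls (log2FC = 1.04, adjusted p = 0.00501 from limma). Both neighbours were also called in *Tbr1* KO (log2FC of -0.70 for *Psmd14* and 1.53 for *Slc4a10*) but not in *Tbr2* cKO (-0.05 and 0.61). *Rbms1*, an RNA-binding protein gene 3 places from *Tbr1*, rose by 0.57 (adjusted p = 0.00095), and was not called in *Tbr1* KO (0.10) or *Tbr2* cKO (0.35). Beside *Eomes* on chromosome 9, only *Azi2* among the 10 nearest tested genes was called (log2FC = 0.29, adjusted p = 0.0284).

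The 15 largest decreases included *Eomes*. *Mc4r*, a melanocortin receptor, had values of 8.72, 8.50 and 8.31 in *Tbr1/2* dKO embryos, against 11.47, 11.71 and 11.71 in controls (log2FC = -3.12, standard error 0.12, adjusted p = 4.18e-07 from limma). *Unc5d*, a netrin receptor of multipolar cells and upper layer neurons, had values of 8.31, 8.37 and 8.25 in *Tbr1/2* dKO embryos, against 10.96, 11.00 and 10.97 in controls (log2FC = -2.67, standard error 0.09, adjusted p = 1.15e-07 from limma). Embryos of 1 genotype hardly differed in *Unc5d*, and the genotypes lay far apart. *Reln*, the secreted glycoprotein made by Cajal-Retzius cells, had values of 9.71, 8.66 and 9.65 in *Tbr1/2* dKO embryos, against 11.70, 11.74 and 11.74 in controls (log2FC = -2.39, standard error 0.22, adjusted p = 0.000147 from limma). *Tbr1/2* dKO replicate 2 was lowest for *Reln*, but the other *Tbr1/2* dKO embryos were also well below every control. *Sla*, an adaptor protein gene used as a marker of deep layer neurons, varied most between mutants, at 8.55, 7.07 and 8.36 in *Tbr1/2* dKO embryos against 10.81, 11.18 and 10.87 in controls (log2FC = -2.96, standard error 0.45, adjusted p = 0.00386 from limma). *Robo2* (log2FC = -2.38) and *Plxna4* (-2.28) encode axon guidance receptors for slits and semaphorins. *Slc17a7* (-2.16) encodes a vesicular glutamate transporter, and *Wnt7b* (-2.24) a secreted Wnt ligand. The remaining members of the 15 were *Rgs6* (-2.22), a regulator of G protein signaling, the transcript *D230039L06Rik* (-2.15), *Nfe2l3* (-2.03), a bZIP transcription factor, *Gas7* (-1.97), the cadherin *Cdh8* (-1.91) and *Lrrtm3* (-1.86), a synaptic adhesion protein.

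The 15 largest increases were headed by a transcription factor of the Ebf family. *Ebf3* had values of 12.74, 12.75 and 12.54 in *Tbr1/2* dKO embryos, against 9.58, 9.78 and 9.85 in controls (log2FC = 2.94, standard error 0.18, adjusted p = 8.01e-06 from limma), a 7.68-fold increase. *Chrna3*, a nicotinic acetylcholine receptor subunit, had values of 11.90, 11.58 and 12.14 in *Tbr1/2* dKO embryos, against 8.84, 9.09 and 9.44 in controls (log2FC = 2.75, standard error 0.32, adjusted p = 0.000663 from limma). *Adcyap1*, which encodes the neuropeptide PACAP, had values of 11.01, 10.70 and 10.89 in *Tbr1/2* dKO embryos, against 8.35, 8.08 and 8.15 in controls (log2FC = 2.67, standard error 0.13, adjusted p = 1.31e-06 from limma). In each of these 3 genes the lowest mutant exceeded the highest control by more than 2 on the log2 scale. *Angpt1*, the ligand of the endothelial receptor Tie2, had values of 8.53, 8.95 and 9.55 in *Tbr1/2* dKO embryos, against 6.64, 6.67 and 6.59 in controls (log2FC = 2.38, standard error 0.26, adjusted p = 0.000468 from limma). *Tacr3*, a tachykinin receptor, was less even, with 10.32, 7.72 and 9.67 in *Tbr1/2* dKO embryos against 6.62, 6.73 and 7.58 in controls (log2FC = 2.26, standard error 0.53, adjusted p = 0.0478 from limma), and its call was kept in only 6 of 23 alternative settings. The other large increases were in *Ebf1* (2.20), *Chodl* (1.75), *Cbln2* (1.74), a secreted organizer of synapses, *Mab21l1* (1.74), *Lmcd1* (1.60), *Grp* (1.59), the gene of gastrin-releasing peptide, *Crabp2* (1.52) and *Crabp1* (1.47), which bind retinoic acid, *Plk3* (1.50) and *Cdhr1* (1.48).

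**Figure D2:**
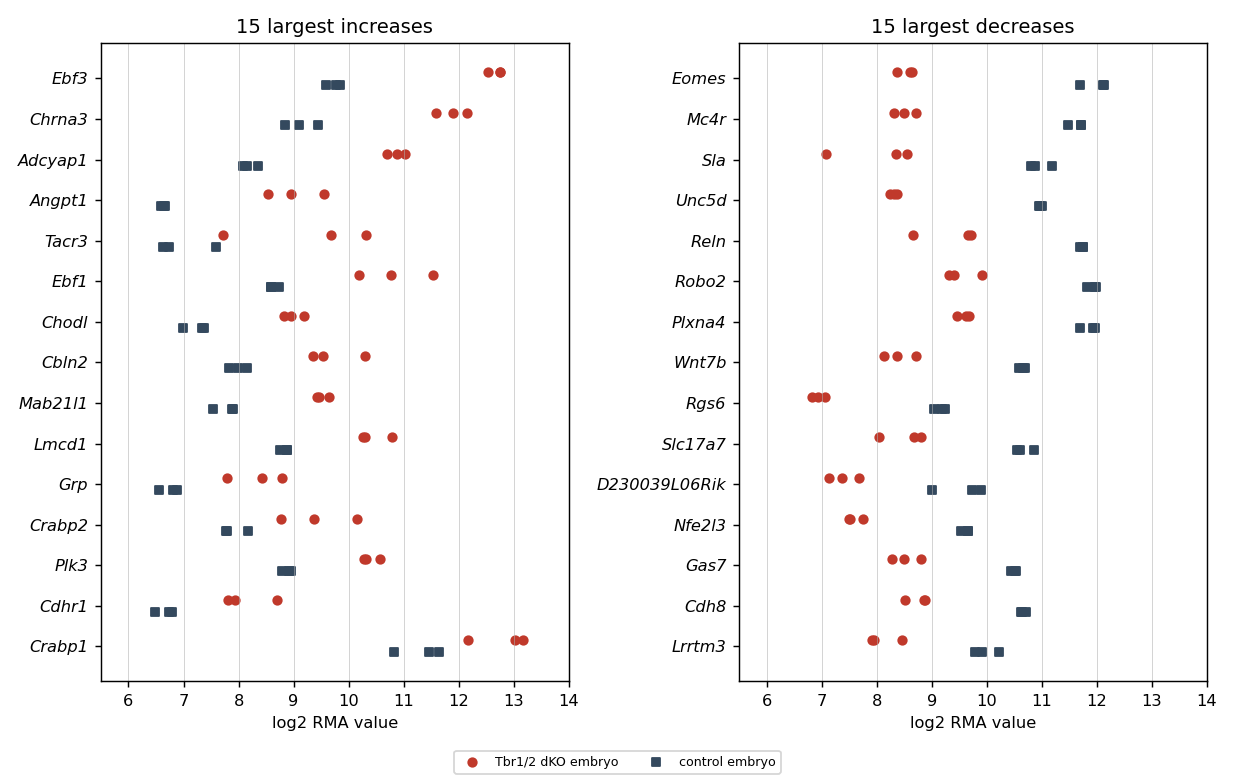
Points give the log2 RMA value (horizontal axis) of each *Tbr1/2* dKO embryo (circles, above) and each control embryo (squares, below) for the 15 largest called increases and decreases. The genotypes do not overlap in any of the 30 genes, which was a condition of their choice. *Tacr3* and *Sla* show the widest spread among *Tbr1/2* dKO embryos.

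Adjacent genes on a chromosome were called together in 37 of 14781 neighbouring pairs, in the same direction in 29 and in opposite directions in 8. Of all genes 3.11% were called, and whether adjacent genes were called together beyond this share was not tested. The clusters below, and the divergent promoter, were picked with the values in view. On chromosome 9 the 3 consecutive nicotinic receptor genes *Chrna5*, *Chrna3* and *Chrnb4*, whose subunits can assemble into one receptor, all rose. *Chrnb4* had values of 9.82, 9.41 and 9.94 in *Tbr1/2* dKO embryos, against 8.18, 8.34 and 8.72 in controls (log2FC = 1.31, adjusted p = 0.00303 from limma). *Chrna5* had values of 7.42, 7.29 and 7.40 in *Tbr1/2* dKO embryos, against 6.54, 6.61 and 6.38 in controls (log2FC = 0.86, adjusted p = 0.00146 from limma). On chromosome 8 *Cdh8*, the non-coding RNA gene *A330008L17Rik* and *Cdh11* are consecutive, and all fell. *Cdh8* had values of 8.86, 8.51 and 8.88 in *Tbr1/2* dKO embryos, against 10.71, 10.65 and 10.62 in controls (log2FC = -1.91, standard error 0.14, adjusted p = 3.43e-05 from limma). *A330008L17Rik* had values of 7.24, 7.22 and 7.37 in *Tbr1/2* dKO embryos, against 8.35, 8.32 and 8.31 in controls (log2FC = -1.05, standard error 0.11, adjusted p = 0.000297 from limma). Neither overlapped between genotypes. On chromosome 15 the neighbouring cadherin genes *Cdh10* (log2FC = -0.57, adjusted p = 0.0177 from limma) and *Cdh12* (-1.50, adjusted p = 6.71e-06 from limma) both fell.

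*Cdh8* and *A330008L17Rik* are transcribed in opposite directions from start sites 203 bases apart on chromosome 8, so that a single stretch lies upstream of both. Of 450 such divergent pairs of tested genes, whose windows from 250 bases before to 50 bases after the start site overlap, this was the only pair with both members called. In 2 further pairs 1 member was called. Beside the 3.11% of all genes called, whether 1 such pair stands out was not tested. The window of *Cdh8* in RefSeq (chr8:99416422-99416721, GRCm38.p6, minus strand) is shown because it shares 298 bases with that of *A330008L17Rik*. Capitals mark the bases between the start sites.
Cdh8: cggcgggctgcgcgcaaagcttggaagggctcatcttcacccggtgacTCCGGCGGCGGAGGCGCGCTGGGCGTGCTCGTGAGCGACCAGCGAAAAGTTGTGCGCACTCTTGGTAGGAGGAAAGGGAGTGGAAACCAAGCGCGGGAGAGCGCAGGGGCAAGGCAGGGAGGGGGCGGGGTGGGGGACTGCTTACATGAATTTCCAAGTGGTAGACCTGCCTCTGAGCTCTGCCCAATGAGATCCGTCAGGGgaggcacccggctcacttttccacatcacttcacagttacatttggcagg

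T-box factors bind DNA that holds the letters AGGTGTGA or the shorter core AGGTGT. Both were searched on both strands of the RefSeq windows of 300 bases (GRCm38.p6), which were given for 11894 of the tested genes and for 352 of the called genes. Each match of the longer letters also contains the shorter ones. The longer letters occurred in 0 of 144 genes that rose and in 1 of 208 that fell, against 1.35% of all genes. The shorter letters occurred in 16.67% of genes that rose and in 12.5% of genes that fell, against 14.23% of all genes, so that the shares lay near the background. Among the 30 largest changes, 18 genes had a window that was searched, and the short letters occurred in 5 of them: *Adcyap1*, *Ebf1*, *Tacr3* and *Plk3*, which rose, and *Nfe2l3*, which fell. A match is a description of these windows, not a binding site. The windows of *Adcyap1* (chr17:93198767-93199066, plus strand), with 2 matches that begin at positions -181 and 45 from the start site, and of *Ebf1* (chr11:44619978-44620277, plus strand), with 1 match on the reverse strand at -50, are shown as examples from the largest increases. Capitals mark the matched letters.
Adcyap1: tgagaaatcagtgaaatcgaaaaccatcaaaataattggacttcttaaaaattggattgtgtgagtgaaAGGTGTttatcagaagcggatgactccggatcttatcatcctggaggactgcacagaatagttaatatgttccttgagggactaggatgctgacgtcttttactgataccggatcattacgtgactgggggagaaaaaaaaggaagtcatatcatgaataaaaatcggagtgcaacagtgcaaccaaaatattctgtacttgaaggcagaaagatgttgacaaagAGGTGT
Ebf1: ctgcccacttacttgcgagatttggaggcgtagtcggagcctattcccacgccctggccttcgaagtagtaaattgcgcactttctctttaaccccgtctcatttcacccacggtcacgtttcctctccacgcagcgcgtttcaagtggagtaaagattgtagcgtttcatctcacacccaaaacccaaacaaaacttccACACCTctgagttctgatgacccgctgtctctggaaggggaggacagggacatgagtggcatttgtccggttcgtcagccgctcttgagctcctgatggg

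Genes were next grouped by cell type and function. Of all genes 3.11% were called, 1.2% higher and 1.9% lower, and the counts below are to be read beside these shares. The lists and their members were chosen with earlier results of these data known. A share above that of all genes is therefore a description of a list and no test of it. Called members of a list beyond its 4 largest changes were singled out with their values in view, as was *Neto2*. Among 24 measured markers of deep layer neurons, 2 were higher and 6 lower in *Tbr1/2* dKO neocortex, with a list median of -0.06. The increases were in *Tcerg1l* (log2FC = 0.60) and *Zfpm2* (0.48), a cofactor of GATA factors. Beside *Sla* and *Tbr1* the decreases were in *Ldb2* (log2FC = -1.39), a LIM domain cofactor, the neurotrophin receptor *Ngfr* (-1.38), and the transcription factors *Sox5* (-1.21) and *Bcl11b* (-0.78), which specify corticofugal neurons. *Sox5* had values of 11.13, 10.51 and 10.90 in *Tbr1/2* dKO embryos, against 12.08, 12.13 and 11.95 in controls (adjusted p = 0.00187 from limma). *Fezf2*, which directs the fate of subcerebral projection neurons, had values of 12.80, 12.73 and 12.78 in *Tbr1/2* dKO embryos, against 12.86, 12.91 and 12.87 in controls, and was not called (log2FC = -0.11, adjusted p = 0.491 from limma, chosen after its values were seen). Among 19 upper layer markers, 7 fell and 1 rose, with a median of -0.31. The decreases were in *Unc5d*, *Cdh8*, *Kitl* (-1.40), the ligand of the Kit receptor, *Mef2c* (-1.38), an activity-regulated transcription factor, *Plxnd1* (-0.92), *Epha3* (-0.81) and *Rorb* (-0.68). The increase was in *Nectin3* (0.27). Called genes made up 33.3% of the deep layer list and 42.1% of the upper layer list.

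Markers of the earliest neurons changed in both directions. Of 22 measured Cajal-Retzius genes, 4 rose and 3 fell. The 3 Ebf genes of the list, transcription factors of differentiating neurons, all rose: *Ebf2* had values of 9.39, 10.30 and 9.48 in *Tbr1/2* dKO embryos, against 8.22, 8.23 and 8.44 in controls (log2FC = 1.43, adjusted p = 0.00453 from limma), and *Ebf1* had 10.19, 11.53 and 10.77, against 8.73, 8.59 and 8.58 in controls. *Nhlh2* rose by 0.60. *Reln*, *Tbr1* and *Ndnf* (-1.15), a secreted factor of marginal zone cells, fell. *Trp73*, which marks the Cajal-Retzius cells of the hem, was not called (log2FC = -0.37, adjusted p = 0.731 from limma, chosen after its values were seen). Of 20 subplate genes, 3 rose and 2 fell. *Nxph4*, a neurexophilin of subplate cells, had values of 12.16, 12.07 and 12.20 in *Tbr1/2* dKO embryos, against 10.88, 10.85 and 11.00 in controls (log2FC = 1.23, standard error 0.06, adjusted p = 1.31e-06 from limma). Its relative *Nxph3* fell, at 7.73, 7.59 and 7.59 in *Tbr1/2* dKO embryos against 8.52, 8.30 and 8.53 in controls (log2FC = -0.81, adjusted p = 0.000297 from limma). *Drd1*, a dopamine receptor, also fell (-1.24). Called genes made up 31.8% of the Cajal-Retzius list and 25% of the subplate list, against 3.11% of all genes.

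Progenitor genes that were called mostly rose. Among 28 radial glial genes, 3 rose and none fell: *Emx2* (log2FC = 0.72), *Pax6* (0.53) and *Glul* (0.37), which encodes glutamine synthetase. A positive log2FC was found in 23 of the 28, and the median was 0.15, against 0.01 over all genes. Among 28 genes of intermediate progenitors, 6 rose and 3 fell. *Nhlh1*, a basic helix-loop-helix (bHLH) factor of newborn neurons, had values of 13.25, 13.16 and 13.34 in *Tbr1/2* dKO embryos, against 12.08, 12.28 and 12.20 in controls (log2FC = 1.06, standard error 0.07, adjusted p = 1.66e-05 from limma). The other increases were in *Gadd45g* (0.56), *Neurog1* (0.51), *Insm1* (0.47), a zinc finger factor that promotes delamination of progenitors, *Mfng* (0.41) and the Notch ligand *Dll1* (0.39). Besides *Eomes*, *Kif26b* (-1.78), a kinesin, and the reelin receptor *Lrp8* (-0.50) fell. Of 25 proneural and neuronal bHLH genes, 4 rose and none fell, with the largest increase in *Olig3*, at 8.06, 8.83 and 8.23 in *Tbr1/2* dKO embryos against 6.56, 7.10 and 7.13 in controls (log2FC = 1.44, adjusted p = 0.00307 from limma). Of 29 Notch pathway genes, 5 rose and none fell: the coactivator *Maml3* (0.50), the glycosyltransferase *Mfng* and the ligands *Dll4* (0.40), *Jag2* (0.39) and *Dll1*. Called shares were 10.7% for radial glia, 32.1% for intermediate progenitors, 16% for bHLH genes and 17.2% for the Notch pathway. Of all genes 3.11% were called. With the meningeal mean as a covariate, the counts of increases were 1 for radial glia, 3 for intermediate progenitors, 3 for bHLH genes and 2 for the Notch pathway. Without *Tbr1/2* dKO replicate 1 they were 1, 3, 4 and 3. The radial glial count was also 1 without *Tbr1/2* dKO replicate 2, when 4 intermediate progenitor genes rose, and the intermediate progenitor count was 3 without control replicate 3.

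Cell cycle genes were mostly not called. All 28 measured genes of G2 and M phase had a positive log2FC (0.02 to 0.29, median 0.24), as did 27 of 29 genes of G1 and S phase, and none of them was called higher. The G1 and S genes ranged from -0.57 (*Cdk6*) to 0.78 (*Cdkn1a*, adjusted p = 0.508 from limma, chosen after its value was seen), with a median of 0.16. Without *Tbr1/2* dKO replicate 2 the median was 0.12 for G2 and M, with 25 positive, and 0.08 for G1 and S, with 21 positive. The mean of the G2 and M genes was 10.55, 10.93 and 10.67 in *Tbr1/2* dKO replicates 1 to 3, against 10.53, 10.45 and 10.52 in controls. *Tbr1/2* dKO replicate 2 was thus the highest, and replicate 1 barely exceeded the controls. The most abundant G2 and M genes were *Ccna2*, a cyclin (log2FC = 0.02, adjusted p = 0.969 from limma), and *Plk1*, a mitotic kinase (0.24, adjusted p = 0.363). *Cdk6*, which drives G1 progression, was the only cell cycle gene called and was lower (log2FC = -0.57, adjusted p = 0.018 from limma). It made up 3.45% of the G1 and S list, against 3.11% of all genes called.

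**Figure D3:**
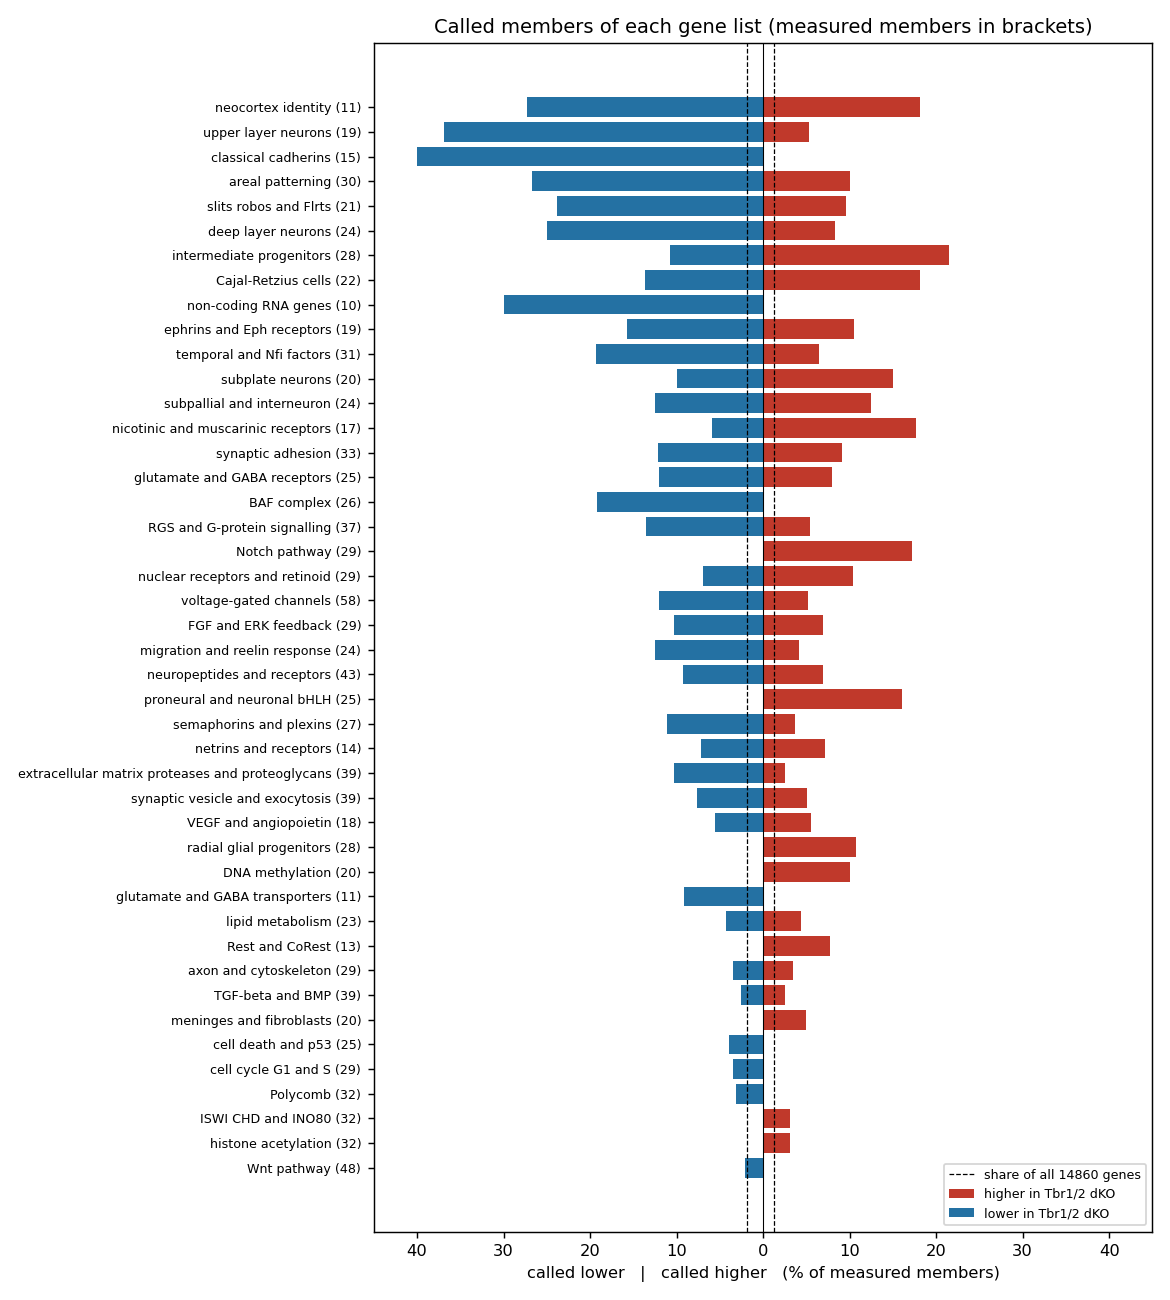
Bars give the percentage of measured members of each gene list that were called higher (right) or lower (left) in *Tbr1/2* dKO than in control neocortex, and dashed lines give the shares of all 14860 genes (1.2% higher, 1.9% lower). Lists with no called member are not drawn, and a gene can stand in several lists. The lists were chosen with earlier results of these data known, so that a bar beyond a dashed line is no test of a list.

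Adhesion and guidance genes were described family by family. Of 15 classical cadherins, 6 fell and none rose, with a median of -0.33: *Cdh8*, *Cdh12*, *Cdh13* (log2FC = -1.44), *Cdh11* (-0.87), *Cdh10* and *Cdh4* (-0.51). *Cdh13* was at 10.62, 9.01 and 10.31 in *Tbr1/2* dKO embryos against 11.50, 11.44 and 11.32 in controls, and its call was kept in 15 of 24 alternative settings. None of 8 delta-protocadherins was called, a count that says little beside the 3.11% of all genes, and 1 was called higher without *Tbr1/2* dKO replicate 1. The most abundant, *Pcdh10* (0.03) and *Pcdh18* (-0.34), had adjusted p values of 0.947 and 0.295. Among 21 genes of the slit, robo, Flrt and related leucine-rich families, 5 fell and 2 rose. *Robo2* had values of 9.30, 9.91 and 9.41 in *Tbr1/2* dKO embryos, against 11.97, 11.99 and 11.82 in controls (adjusted p = 6.59e-05 from limma). *Lrrtm4* (-1.46), *Flrt1* (-0.71) and *Flrt2* (-0.45) fell, whereas *Flrt3* (0.48) and *Slitrk5* (0.31) rose. Of 14 netrins and receptors, *Unc5d* fell and *Dcc*, the attractive netrin receptor, rose (0.38, adjusted p = 0.0365). Of 27 semaphorins and plexins, *Plxna4*, *Sema3c* (-1.13) and *Plxnd1* fell and *Plxnb2* (0.28) rose. Of 19 ephrins and Eph receptors, the receptors *Epha3*, *Epha7* (-0.54) and *Epha5* (-0.43) fell, and *Epha6* (1.14) and the ligand *Efna5* (0.42) rose. *Epha3* was at 10.96, 10.95 and 11.01 in *Tbr1/2* dKO embryos, against 11.88, 11.76 and 11.72 in controls (adjusted p = 1.84e-05 from limma). In the reelin response and migration list of 24 genes, *Lrp8* and *Lrpap1* (-0.39) fell along with *Reln*, and the small GTPase *Rnd3* (0.45) rose.

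Areal patterning genes, which set up differences between rostral and caudal cortex, included 3 increases and 8 decreases among 30 measured. *Emx2* and *Pax6*, which are graded in opposite directions across the progenitor sheet, both rose. *Emx2* had values of 11.39, 11.46 and 11.52 in *Tbr1/2* dKO embryos, against 10.50, 10.66 and 11.05 in controls (adjusted p = 0.0447 from limma), and its call was kept in 14 of 24 settings. *Etv5*, a target of FGF signaling with rostral expression, had values of 8.68, 8.15 and 8.69 in *Tbr1/2* dKO embryos, against 9.49, 9.49 and 9.44 in controls (log2FC = -0.97, adjusted p = 0.0031 from limma). Among 29 genes of FGF and ERK feedback, *Etv5*, *Dusp14* (-0.53) and *Spred2* (-0.36) fell, while *Dusp4* (0.65) and *Flrt3* rose. *Wnt7b* was at 8.13, 8.37 and 8.71 in *Tbr1/2* dKO embryos against 10.70, 10.58 and 10.65 in controls. It was the only one of 48 Wnt pathway genes to be called (2.08%, against 3.11% of all genes). Of 39 TGF-beta and BMP genes, *Bmp2* rose (0.97) and *Bmp3* fell (-0.48).

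Among 31 temporal and Nfi family factors, which mark the progress of neuronal differentiation, 6 fell and 2 rose. *Bcl6*, a repressor that promotes neurogenesis, had values of 7.97, 7.94 and 8.00 in *Tbr1/2* dKO embryos, against 9.38, 9.65 and 9.54 in controls (log2FC = -1.56, standard error 0.10, adjusted p = 9.74e-06 from limma). *Sox5*, *Tshz3* (-0.79), *Zeb2* (-0.67), *Zbtb18* (-0.49) and *Sox4* (-0.40) also fell, and *St18* (0.82) and *Insm1* rose. None of these 31 genes was called higher without *Tbr1/2* dKO replicate 1 or with the meningeal covariate. Chromatin regulators included the BAF complex, an ATP-dependent remodeler whose subunits are exchanged as progenitors become neurons. Of its 26 measured subunits 5 fell and none rose, and the median was -0.02. The number that fell was 3 without *Tbr1/2* dKO replicate 2 or without control replicate 3. *Smarca2*, one of its ATPases, had values of 9.68, 9.38 and 9.78 in *Tbr1/2* dKO embryos, against 10.77, 10.62 and 10.41 in controls (log2FC = -0.99, standard error 0.12, adjusted p = 0.000855 from limma). *Smarcd3*, a neuronal subunit, had values of 10.45, 10.44 and 10.49 in *Tbr1/2* dKO embryos, against 11.00, 11.10 and 10.99 in controls (log2FC = -0.57, adjusted p = 0.000877 from limma). *Bcl11b*, *Dpf3* (-0.47) and *Bcl7a* (-0.33) were the others. None of 29 genes of Trithorax and histone demethylation was called, and its most abundant members were *Kdm1a* (-0.10, adjusted p = 0.526) and *Kdm5b* (-0.01, adjusted p = 0.972). The Polycomb cofactor *Jarid2* (-0.32) was called lower among 32 genes, and *Hdac9* (0.55), *Baz2b* (0.43) and the DNA methyltransferase *Dnmt3a* (0.26, adjusted p = 0.034) were called higher among 32 genes of histone acetylation, 32 of the ISWI, CHD and INO80 remodelers and 20 of DNA methylation. Single calls among 32 genes (3.12%) lie at the share of all genes (3.11%), and none among 29 says little beside it. Of 13 Rest and CoRest genes only *Insm1* was called. None was called without *Tbr1/2* dKO replicate 1, without control replicate 3 or with the meningeal covariate. All 3 called non-coding RNA genes of 10 measured were lower: *A330008L17Rik*, *AI504432* (-0.70) and *9630028B13Rik* (-0.65). Without *Tbr1/2* dKO replicate 1 only 1 was called, and with the meningeal covariate also 1.

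Receptors, channels and transmitter genes changed in both directions. The called shares of these lists lay between 9.09% (transporters) and 23.5% (cholinergic receptors), against 3.11% of all genes. Of 43 neuropeptides and receptors, *Adcyap1*, *Tacr3* and *Grp* rose, and *Mc4r*, *Ntsr1* (log2FC = -1.14), *Cck* (-1.08) and *Npy* (-0.52) fell. *Grp* had values of 7.79, 8.43 and 8.79 in *Tbr1/2* dKO embryos, against 6.82, 6.56 and 6.87 in controls. Of 17 cholinergic receptors, the *Chrna5*, *Chrna3* and *Chrnb4* cluster rose and the muscarinic receptor *Chrm1* (-0.93) fell. Among 25 glutamate and GABA receptors, *Gria3* (-1.35), *Grin2b* (-1.07) and *Gabrb2* (-0.70) fell while *Gria4* (0.73) and *Grik4* (0.58) rose. Both directions were thus found among AMPA receptor subunits with all arrays. None of these 25 genes was called higher without control replicate 3 or with the meningeal covariate. *Slc17a7* was at 8.80, 8.04 and 8.68 in *Tbr1/2* dKO embryos against 10.86, 10.54 and 10.61 in controls, and no other of 11 transporters of glutamate and GABA was called. Of 58 voltage-gated and related channels, 7 fell, among them the potassium channel genes *Kcnq3* (-1.57), *Kcnv1* (-1.54) and *Kcnh5* (-1.16) and the calcium channel gene *Cacna1e* (-1.08). *Cacna2d1* (0.77), *Kcnd3* (0.69) and *Kcnd2* (0.64) rose. Of 37 genes of G-protein signaling, *Rgs6*, *Gnal* (-0.98), *Pde4d* (-0.67), *Gng7* (-0.47) and *Pde10a* (-0.38) fell, and *Gng8* (1.23) and *Pde1c* (1.06) rose.

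Further lists held a few calls each. Of 39 genes of synaptic vesicles, *Rph3a* (log2FC = -0.88), *Syt1* (-0.55) and *Syt7* (-0.33) fell and *Syt13* (0.60) and *Doc2b* (0.39) rose. With the meningeal covariate none of these 39 genes was called. Of 33 synaptic adhesion genes, *Cbln2*, *Nxph4* and *Lrfn2* (0.54) rose, and *Cntnap4* (-0.96), *Nxph3*, *Ptprd* (-0.64) and *Cntn3* (-0.58) fell. The neurofilament gene *Nefl* (1.44) rose and the adhesion molecule *Chl1* (-0.86) fell among 29 genes of axon and cytoskeleton. Without *Tbr1/2* dKO replicate 2 none of these 29 genes was called. Of 39 extracellular matrix genes, *Tnr* (-1.18), *Mmp17* (-0.88), *Adamts18* (-0.51) and *Mmp16* (-0.42) fell and *Spock3* (0.50) rose. Nuclear receptors and retinoid genes included *Esrrg* (0.90), which rose with *Crabp1* and *Crabp2*, and *Rorb* and *Rara* (-0.35), which fell. *Lpl* (-1.30), a lipoprotein lipase, and *Abcg1* (0.32), a sterol transporter, were the calls among 23 lipid genes. The chemokine receptor *Ackr3* (-0.91) fell beside the increase of *Angpt1* among 18 genes of VEGF and angiopoietin signaling. *Trp53inp1* (-0.48) was the only one of 25 genes of cell death to be called (4%, against 3.11% of all genes). None of 24 immediate early and stress genes was called, including the most abundant, *Dusp1* (-0.19, adjusted p = 0.129) and *Hspa5* (0.45, adjusted p = 0.4).

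The dissected tissue was checked with markers of other cell types. With 3.11% of all genes called, an absence of calls in lists this short says little. No gene was called among 22 of endothelium and pericytes, 11 of blood, 19 of microglia, 11 of oligodendrocyte precursors, 17 of thalamus and midbrain, 19 of choroid plexus and cortical hem, and 11 housekeeping genes, and among 20 of meninges only *Crabp2*, which is also a retinoid gene. *Crabp2* was at 8.77, 10.15 and 9.37 in *Tbr1/2* dKO embryos against 7.77, 7.79 and 8.17 in controls. It was highest in replicate 2, and the meningeal mean was highest in replicate 1. With the meningeal mean as a covariate, *Crabp2* was not called. Whether meningeal tissue contributed to its rise was not tested. Most of the 20 meningeal genes (18) had a positive log2FC, with a median of 0.24. Without *Tbr1/2* dKO replicate 1 the median was 0.04, with 14 positive. With all arrays, a positive log2FC was also found in all 11 blood genes and in 18 of 22 of endothelium and pericytes. It was found in 16 of 19 of choroid plexus and hem and in 14 of 17 of thalamus and midbrain. The counts were 7 of 11 for oligodendrocyte precursors, 8 of 19 for microglia and 9 of 11 for housekeeping genes. *Col1a1* was at 8.95, 8.33 and 8.16 in *Tbr1/2* dKO embryos against 7.97, 8.29 and 8.39 in controls, and *Ttr*, which defines the choroid plexus, at 7.76, 6.87 and 6.77 against 6.78, 7.01 and 6.99 (both chosen after their values were seen). The choroid plexus and hem list averaged 8.04, 7.52 and 8.02 in *Tbr1/2* dKO embryos and 7.35, 7.65 and 8.02 in controls, so that the genotypes overlapped, and its most abundant members were *Rspo3* (-0.82, adjusted p = 0.196) and *Rspo1* (0.45, adjusted p = 0.784). Blood genes averaged 8.22, 8.36 and 8.10 in *Tbr1/2* dKO embryos and 8.10, 8.07 and 8.14 in controls (*Hbb-y* log2FC = 0.31, *Hba-x* 0.34). The most abundant genes of the other lists had a log2FC of 0.05 (*Slc2a1*) and 0.19 (*Mfsd2a*) for endothelium, -0.06 (*Laptm5*) and 0.15 (*Cd68*) for microglia, -0.07 (*Olig1*) and 0.22 (*Mbp*) for oligodendrocyte precursors, 0.85 (*Lhx9*) and 0.36 (*Foxp2*) for thalamus and midbrain, and -0.03 (*Actb*) and -0.02 (*Eef2*) for housekeeping genes. None of these was called, the lowest adjusted p being 0.124 (*Foxp2*).

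**Figure D4:**
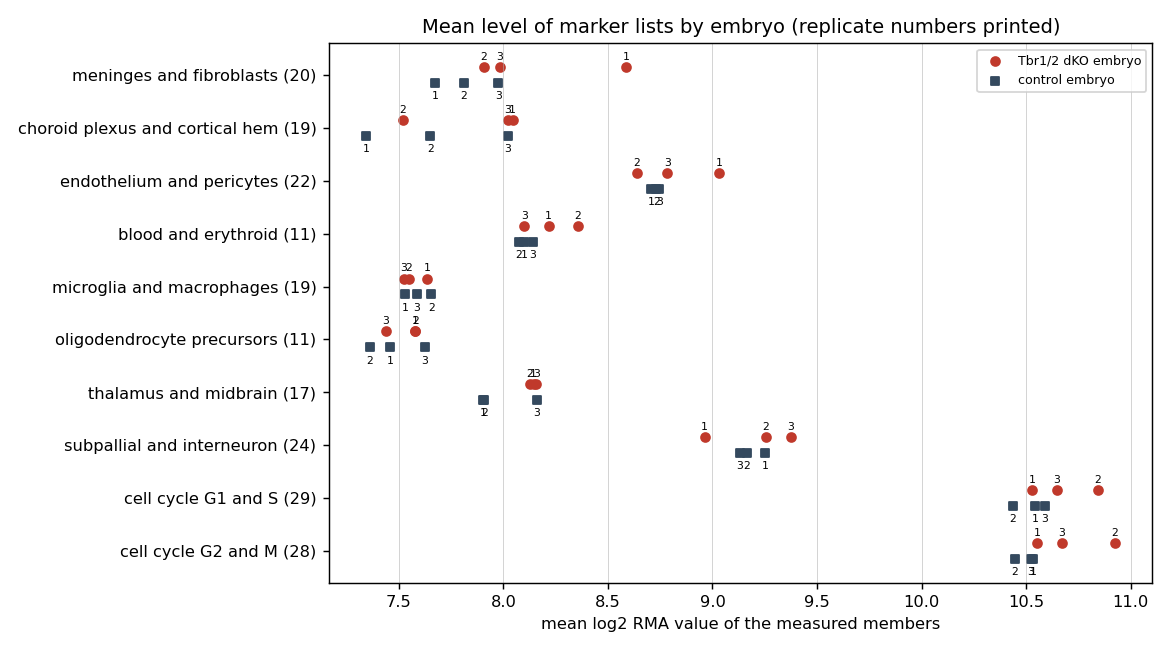
Points give the mean log2 RMA value (horizontal axis) of the measured members of each list in each *Tbr1/2* dKO embryo (circles, above) and each control embryo (squares, below), with replicate numbers. *Tbr1/2* dKO replicate 1 is highest for meninges (8.59) and replicate 2 for the G2 and M genes (10.93).

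Genes of the subpallium and of interneurons, which enter the cortex from below, included 3 higher and 3 lower of 24. Called genes made up 25% of this list, against 3.11% of all genes. The number lower was 1 when replicate 1 or 2 of *Tbr1/2* dKO or replicate 3 of the controls was left out, and also with the meningeal covariate, and the number higher was 3 in each. *Htr3a* (log2FC = 1.29), *Ebf1* and *Tshz1* (0.71) rose, and *Cck*, *Lhx6* (-0.67) and *Npy* fell. The list mean was 8.96, 9.26 and 9.37 in *Tbr1/2* dKO embryos, against 9.25, 9.17 and 9.13 in controls. *Gad1*, which synthesizes GABA, was at 8.34, 8.50 and 8.84 in *Tbr1/2* dKO embryos against 9.30, 8.90 and 8.73 in controls (log2FC = -0.42, adjusted p = 0.332 from limma, chosen after its values were seen).

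The double mutant was then set beside the single mutants, against the same controls. Of the 179 increases in *Tbr1/2* dKO, 18 were also called higher in *Tbr1* KO and 35 in *Tbr2* cKO, and 130 were called in neither. Over all genes, 32 were called higher in *Tbr1* KO (0.215%) and 37 in *Tbr2* cKO (0.249%). Of the 283 decreases, 52 were also called lower in *Tbr1* KO and 58 in *Tbr2* cKO, and 200 were called in neither. Over all genes, 60 were called lower in *Tbr1* KO and 60 in *Tbr2* cKO (0.404% each). The median log2FC of the 179 increases was 0.55 in *Tbr1/2* dKO, 0.15 in *Tbr1* KO and 0.35 in *Tbr2* cKO, and that of the 283 decreases was -0.67, -0.28 and -0.41. All these values share the controls, the genes were chosen in *Tbr1/2* dKO, and a gene that was not called in a single mutant is not shown to differ from the double mutant. Direct tests called 77 of the increases and 76 of the decreases in *Tbr1/2* dKO against *Tbr1* KO, 4 and 12 against *Tbr2* cKO, and 2 and 8 against both.

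**Figure D5:**
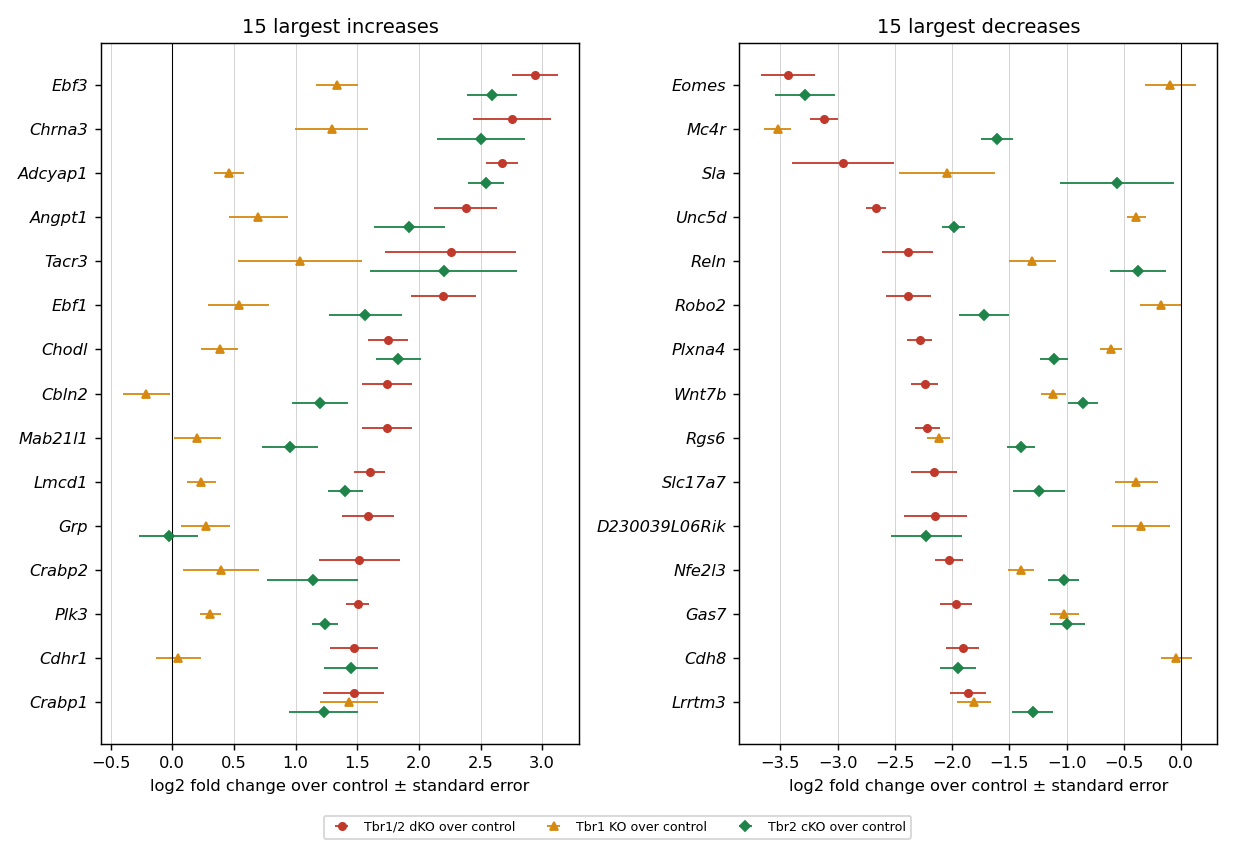
Points give the log2FC over the shared controls, with the standard error from limma (horizontal bars), for the 15 largest increases and decreases of *Tbr1/2* dKO. *Grp*, at 1.59 in *Tbr1/2* dKO, was at 0.27 in *Tbr1* KO and -0.03 in *Tbr2* cKO, whereas *Adcyap1* was at 2.54 and *Cdh8* at -1.95 in *Tbr2* cKO, close to their *Tbr1/2* dKO values of 2.67 and -1.91.

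Over all genes, 185 differed between *Tbr1/2* dKO and *Tbr1* KO neocortex (1.24%), 89 higher (0.599%) and 96 lower (0.646%) in the double mutant, and 1625 at an unadjusted p under 0.05 (10.9%). Besides *Eomes*, the largest decreases were in *Unc5d* (log2 difference -2.28, adjusted p = 3.07e-07 from limma), *Robo2* (-2.21), *Cdh8* (-1.87) and *D230039L06Rik* (-1.80), and the largest increases in *Adcyap1* (2.21), *Cbln2* (1.95), *Angpt1* (1.68), *Ebf1* (1.66) and *Ebf3* (1.61). *Unc5d* was at 10.45 to 10.78 in *Tbr1* KO embryos and *Adcyap1* at 8.38 to 8.86, beside 8.25 to 8.37 and 10.70 to 11.01 in *Tbr1/2* dKO embryos. The number was 105, 97, 114 and 121 without *Tbr1* KO replicates 1 to 4 and 102 without *Tbr1/2* dKO replicate 3, and with only these 2 genotypes in the model it was 66.

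Against *Tbr2* cKO neocortex, 16 genes differed (0.108%), 4 higher (0.0269%) and 12 lower (0.0808%) in *Tbr1/2* dKO, and 924 at an unadjusted p under 0.05 (6.22%). *Reln* was at 9.71, 8.66 and 9.65 in *Tbr1/2* dKO embryos, against 11.39 and 11.32 in *Tbr2* cKO embryos (log2 difference -2.01, adjusted p = 0.0101 from limma), and also lower than in *Tbr1* KO (-1.09, adjusted p = 0.0311), where it was at 10.29 to 10.60. *Mc4r* (-1.51), *Wnt7b* (-1.38), *Plxna4* (-1.17) and *Nfe2l3* (adjusted p = 0.023) were the other large decreases against *Tbr2* cKO. The increases were in *Grp* (1.62), *Tfap2a* (0.88), a transcription factor, *Metap1d* (0.65) and *Stxbp6* (0.44). They rest on both *Tbr2* cKO embryos, since without replicate 2 of that genotype no gene was called higher, and only 4 of the 13 genes called were among the 16. Without replicate 1, 13 genes were called, 2 higher, of which 10 were among the 16. *Metap1d*, which lies on chromosome 2 like *Tbr1*, was also called in *Tbr1* KO (log2FC = 0.74) and not in *Tbr2* cKO (0.03). *Reln*, *Wnt7b*, *Plxna4*, *Nfe2l3*, *Cdh12*, *Lrrtm4*, *Unc5d* and *Neto2*, an accessory subunit of kainate receptors, were lower than in either single mutant, and *Grp* and *Tfap2a* were higher than in either, each with an adjusted p under 0.05 in both direct tests. The number of called genes was 10 without *Tbr1/2* dKO replicate 2, without *Tbr1/2* dKO replicate 3 or without control replicate 3. With only the 5 arrays of *Tbr1/2* dKO and *Tbr2* cKO in the model, limma called 0 genes.

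An interaction on the log2 scale tested whether the effects of both single mutants added up in the double mutant. Only 4 of 14860 genes were called (0.0269%), against 510 at an unadjusted p under 0.05 (3.43%), and all 4 changed less in *Tbr1/2* dKO than the sum. *Mc4r* was at 8.72, 8.50 and 8.31 in *Tbr1/2* dKO, 7.85 to 8.27 in *Tbr1* KO, 10.06 and 9.99 in *Tbr2* cKO and 11.47 to 11.71 in control embryos (departure 2.01, standard error 0.18, adjusted p = 0.00431 from limma). Every *Tbr1* KO embryo thus lay below every *Tbr1/2* dKO embryo, a difference that was not called (*Tbr1/2* dKO minus *Tbr1* KO 0.41, adjusted p = 0.177 from limma). *Bcl6* was at 7.94 to 8.00 in *Tbr1/2* dKO, 8.09 to 8.49 in *Tbr1* KO, 8.01 and 8.02 in *Tbr2* cKO and 9.38 to 9.65 in control embryos. *Lpl* was at 8.43 to 8.73 in *Tbr1/2* dKO, 8.29 to 8.60 in *Tbr1* KO, 8.73 and 8.50 in *Tbr2* cKO and 9.74 to 10.05 in control embryos, and *Rgs6* at 6.82 to 7.06, 6.88 to 7.14, 7.57 and 7.94, and 9.04 to 9.24 in the same order. The departures of *Bcl6* (1.13, adjusted p = 0.0436), *Lpl* (1.29, adjusted p = 0.0436) and *Rgs6* (1.30, adjusted p = 0.042) lay close to the threshold. Leaving out single arrays gave between 1 call, as without any 1 of the controls, and 6 calls, without *Tbr2* cKO replicate 2. Of these 6, only 2 were among the 4, and 4 had the opposite sign.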

How the data were processed

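Neocortex of 12 single E14.5 mouse embryos was hybridized to Affymetrix Mouse Exon 1.0 ST arrays. The authors deposited log2 values made by robust multi-array averaging (RMA) with oligo, per the submitters' processing notes and without a stated version. RMA corrects background, equalizes array distributions by quantiles and summarizes probes, so that differences are relative to the bulk of genes and fold changes at low signal are compressed. Precision is limited by how many arrays there are.

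Of 23332 probesets, 14996 had 1 gene symbol, 1019 had several and 7317 had none in the platform annotation. Each of 14860 genes was represented by its probeset of highest mean (135 had more than 1). Groups came from the labels (3 *Tbr1/2* dKO, 4 *Tbr1* KO, 2 *Tbr2* cKO, 3 control), and each array is an independent embryo per the methods. The series' design text gives 4 per genotype, and the groups here follow the sample labels. A linear model with genotype as the factor was fitted to all 12 arrays in limma 3.58.1 (R 4.3.3) with moderated statistics, and p values were adjusted by Benjamini and Hochberg over all genes, with a threshold of 0.05. Plots used matplotlib 3.10.9 in Python 3.11.15. The code was tested on simulated data.

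Genes were named by a rule: the targeted genes and *Pax6*, the 15 largest called changes in each direction, up to 4 called members of each list or the 2 most abundant where none was called, genes called for a departure, up to 5 per direction against each single mutant, and called genes among 5 neighbours on either side of the targeted genes. The members, lists and rules were chosen with earlier results of these data known. Alternatives covered probeset choice, filters, normalization, the variance prior, array weights, covariates, a replicate block, the arrays in the model, thresholds and leaving out each of the 12 arrays. Counts per list without single arrays, with array weights or with the meningeal covariate were added after seeing the data. Promoter windows are from RefSeq (GRCm38.p6).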

Additional observations from a re-analysis of the deposited data

Results flagged for a closer look

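In 4 genes the effect of Tbr2 loss differed by *Tbr1* genotype in a test of the difference itself (limma interaction, adjusted over 14860 genes). The effect without Tbr1 minus that with Tbr1 was 2.01 for *Mc4r*, 1.30 for *Rgs6*, 1.29 for *Lpl* and 1.13 for *Bcl6* on the log2 scale. In all 4, *Tbr1* KO alone lowered the gene by 1.18 or more (*Bcl6*, log2FC = -1.18), and *Tbr2* cKO alone also lowered it (*Lpl*, log2FC = -1.23).

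Probesets outside the comparisons also differed between *Tbr1/2* dKO and control neocortex. Of 7317 probesets with no gene symbol, 15 were called (0.205%), 6 higher and 9 lower, with log2FC between -2.34 and 1.03. Of 1019 probesets with several symbols, 14 were called (1.37%), 6 higher and 8 lower, with log2FC between -1.48 and 0.98.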

How the results depend on the processing

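Across 24 alternative models, none of the 462 genes called in *Tbr1/2* dKO against control changed sign. The genotypes did not overlap in any of these genes, so leaving out 1 array could not change a sign. The call was kept without each array in turn for 224 (80 higher, 144 lower) and in every model for 192 (72 higher, 120 lower). The count was 258 to 446 when single arrays were left out, 301 with the meningeal covariate, 228 with only the 2 genotypes compared, 603 with array weights, 223 at adjusted p under 0.01, 301 with a log2 change of at least 0.5, and 1826 at unadjusted p under 0.05. Against *Tbr1* KO (185), these were 97 to 175, 120, 66, 194, 68, 116 and 1625. Against *Tbr2* cKO (16), leaving out arrays gave 10 to 17 (without *Tbr2* cKO replicate 2, 13, of which 4 were among the 16 and 0 were higher), only the 2 genotypes 0, adjusted p under 0.01 gave 6 and unadjusted p 924. The departure count (4) was 1 to 6 when arrays were left out, 2 with probesets of several symbols or with genes above the median level, 1 with repeated quantile normalization, the meningeal or the Y-linked covariate or adjusted p under 0.01, and 510 at unadjusted p under 0.05. The cause was not tested, beyond fewer arrays or a stricter rule where these apply.

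Replicate numbers are shared between genotypes but did not pair the embryos, as deviations of same-numbered *Tbr1/2* dKO and control embryos correlated at -0.056, -0.069 and -0.087 across genes. With the replicate number as a block the counts were 350, 77, 2 and 0.

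The sign changed only in genes that were not called. *Eif2s3y* was at -1.97 to 1.99 when arrays were left out and at 0.14 with array weights, and *Kdm5d* at -1.40 to 1.42, 0.19 with array weights, 0.053 with repeated quantile normalization and 0.034 with the Y-linked covariate. *Olig1* (-0.17 to 0.047), *Laptm5* (-0.13 to 0.027, array weights 0.0071), *Kdm5b* (-0.080 to 0.033, repeated quantile normalization 1.18e-05), *Ccna2* (-0.041 to 0.084, array weights -0.016), *Pcdh10* (-0.065 to 0.11, array weights -0.060) and *Slc2a1* (-0.013 to 0.084) also crossed 0.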

Other observations

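The mean of the neocortex identity genes was 11.56, 11.38 and 11.48 in *Tbr1/2* dKO embryos, against 11.91, 11.88 and 11.97 in controls, and 5 of its 11 measured genes were called, 2 higher (*Emx2*, *Pax6*) and 3 lower (*Eomes*, *Tbr1*, *Bcl11b*). This mean includes both targeted genes, and the list's median log2FC was -0.11 with them and -0.07 without them. The call of *Crabp2* was kept in 15 of 23 alternative models, that of *Epha6* (log2FC = 1.14) in 14 of 23 and that of *Glul* in 9 of 24.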
